A study of Homo sapiens with 8 samples.

Results

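The mRNAs of 44 translation initiation, elongation and release factors were followed in LNCaP cells, a human prostate cancer line grown from a lymph node metastasis, after 4 h with inhibitors of O-GlcNAc transferase and of cyclin-dependent kinases. The 44 genes were chosen by name and function, as the core cytosolic factors, and all 44 have a row among the 55737 genes of the deposited table. Of these, 43 reached the mean of 10 normalised counts required for a test, as did 19393 genes in all, and EEF1G is listed at 0 in every library. The groups were control cells, cells given 40 µM OSMI-2, cells given 0.5 µM AT7519 and cells given both, with 2 libraries each. OSMI-2 inhibits O-GlcNAc transferase (OGT), an enzyme that adds single N-acetylglucosamine residues to proteins of the nucleus and cytosol, and AT7519 inhibits several cyclin-dependent kinases including CDK9, which releases paused RNA polymerase II. Doses follow the design text of the series; its protocol field prints mM in place of µM. The series asks whether prostate cancer cells with inhibited OGT come to depend on CDK9. The labels do not say that the 2 libraries of a group came from separate cultures, so p-values measure the spread between libraries, which may be technical.

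Translation of most mRNAs begins when the eIF4 factors bind the cap and the poly(A) tail and unwind the leader, so that a small ribosomal subunit carrying eIF1, eIF1A, eIF2 with the initiator tRNA, eIF3 and eIF5 can scan to the start codon. eIF2B recharges eIF2 with GTP and is blocked when stress kinases phosphorylate eIF2, which makes it the main brake of the integrated stress response. The eEF1 complex then delivers aminoacyl-tRNAs, eEF2 moves the ribosome along, and eRF1 and eRF3 end the chain. Many mRNAs of this machinery begin with a C and an unbroken run of pyrimidines, the terminal oligopyrimidine (TOP) motif, through which mTOR and LARP1 control their translation and stability.

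The transcription starts of these genes are shown because the changes are described below for members with and without such a run. RefSeq starts on build GRCh38.p14 were found for 36 of the 44 members, 51 starts in all. A run was counted when base 1 was C and at least 4 further C or T followed without a break. It was found at 10 of the 51 member starts (19.6%) and at 4.07% of all 35116 starts in the same table. Each window below holds 15 bases before the start and 15 bases from it, the latter being the beginning of exon 1 and of the 5′ UTR, with the run in capitals. The first 6 have a run and the last 4 have none. They lie at chr6:73521018-73521047 (EEF1A1, minus strand), chr19:3985449-3985478 (EEF2, minus strand), chr2:206159880-206159909 (EEF1B2, plus strand, the second of its starts), chr11:7987322-7987351 (EIF3F, plus strand), chr12:53006441-53006470 (EIF4B, plus strand) and chr3:186783562-186783591 (EIF4A2, plus strand). Those without a run lie at chr14:103334222-103334251 (EIF5, plus strand, the first of its starts), chr15:44537132-44537161 (EIF3J, plus strand), chr4:98929119-98929148 (EIF4E, minus strand) and chr16:22206263-22206292 (EEF2K, plus strand).
EEF1A1: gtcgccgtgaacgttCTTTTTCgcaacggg
EEF2: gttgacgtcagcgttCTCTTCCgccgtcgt
EEF1B2: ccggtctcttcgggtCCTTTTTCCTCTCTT
EIF3F: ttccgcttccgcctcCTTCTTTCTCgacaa
EIF4B: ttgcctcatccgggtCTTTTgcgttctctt
EIF4A2: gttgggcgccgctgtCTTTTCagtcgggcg
EIF5: gcggcggcgttgttcagtcagagcgagaac
EIF3J: cacctccgccgtgctaactcctcgctagct
EIF4E: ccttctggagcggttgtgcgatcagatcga
EEF2K: tgcccgcccgcttctgctcaacctagacca
The counts rest on an older build, hg19 or GRCh37 per the submitters' processing notes, and which start LNCaP cells use was not measured here.

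The libraries held 60152710 to 154367238 reads assigned to genes, and 3 reads correspond to 1.76 to 5.47 normalised counts. All values below are the authors' normalised counts, that is read counts divided by 1 size factor per library, and a log2 change is fitted on log2(value + 1) with its standard error (SE). Without AT7519, mitochondrial mRNAs took 4.45% to 5.53% of counts, and with it they took 6.57% to 7.73%; the part of this shift in the results below was not tested. Scaling libraries to equal mitochondrial mRNAs moved the median of all genes to -0.91 with AT7519, -0.95 with the combination and -0.14 with OSMI-2. Scaling to equal totals moved it to -0.34, -0.23 and 0.057, so the directions below hold relative to the median gene and not per cell. With AT7519 under equal mitochondrial mRNAs, 383 of the 19393 tested genes were called higher and 14654 lower. Under equal totals 2035 were called higher and 8363 lower. Counts of genes under these scalings below are to be read beside these. In bulk samples fewer cells of a type and less RNA per cell cannot be told apart. The 9 luminal prostate markers summed to 417740 to 460040 normalised counts without AT7519 and 447400 to 520253 with it, whereas the 4 leukocyte markers summed to at most 11.8. The 4 fibroblast markers summed to 1815 to 2557 without AT7519 and 2512 to 3735 with it, and the 2 endothelial markers, of which CDH5 was at 0, to 1237 to 1484 and 1132 to 1506. Nearly all of the fibroblast sum was COL1A1, at 1814 to 3726, while COL1A2, DCN and PDGFRA were at most 0.83, 7.29 and 12.2. The part of these markers in the results was not tested.

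With AT7519 most translation factor mRNAs rose against the median of all genes. In the normalised counts as deposited, 35 of 43 tested members rose and 2 fell (limma, Benjamini-Hochberg adjusted p below 0.05 over all genes tested), where 26.0% of all tested genes rose and 27.2% fell. With libraries scaled to equal mitochondrial mRNAs only EIF4A1 and EIF4A2 rose and 30 fell, where 383 of all 19393 tested genes rose and 14654 fell. As deposited, the members' median change was 0.46 (log2), against -0.0042 for all genes. Under equal totals 17 rose and 6 fell with a median of 0.11, where 2035 of all tested genes rose and 8363 fell. Together the members took 2.76% to 2.91% of all counts where AT7519 was absent and 3.42% to 3.54% where it was present, 4 libraries each. Leaving out EEF1A1, by far the most abundant, these shares were 1.56% to 1.66% and 1.83% to 1.87%.

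OSMI-2 alone gave small changes, mostly downward. Of the 43 members 7 fell and 0 rose, against 2.38% and 0.645% of all tested genes, and the members' median was -0.19 against -0.018 for all genes. An unadjusted p below 0.05 was reached by 26 members and 39 had a negative sign, but the matching shares of all tested genes were not computed. The count rested on single libraries, being 0 when control replicate 2 or OSMI-2 replicate 2 was left out, 2 when OSMI-2 replicate 1 was, and 12 when either AT7519 library was, through which the shared spread is estimated. It was 8 with edgeR, 15 with DESeq2 and 2 with libraries scaled to equal totals, where 520, 1113 and 118 of all tested genes fell.

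The combination against control gave 23 members higher and 3 lower, where 26.3% of all tested genes rose and 27.6% fell. Scaling to equal mitochondrial mRNAs left 1 member higher and 38 lower, where 425 of all 19393 tested genes rose and 14588 fell. Set directly against AT7519 alone, 16 members fell and 0 rose with the combination, against 12.5% and 7.21% of all tested genes. With libraries scaled to equal totals 5 fell, where 1534 of all 19393 tested genes fell and 2022 rose. The count of 16 was smaller when any 1 AT7519 or combination library was left out. Of the 12 members named for it below, EIF5B and EIF4E kept the call whichever library was left out, and the other 10 lost it without at least 1. Against OSMI-2 alone, 35 rose and 2 fell, where 27.5% and 27.3% of all genes did. The 3 comparisons with control share the control libraries, and the 2 comparisons of the combination share its libraries, so they are not independent of each other.

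The interaction, which asks whether the change with both agents departs from the sum of their separate log2 changes, was called for 0 of 43 members, where 1.04% of all tested genes were called, 0.0619% higher and 0.975% lower. Interaction values ran from -0.28 in EIF4A2 to 0.16 in EIF2S3 with a median SE of 0.11, and 35 of 43 lay within 0.1 of 0. With limma 1 member had an unadjusted p below 0.05, the lowest adjusted p was 0.382, and edgeR and DESeq2 called 0 as well.

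**Figure D1:**
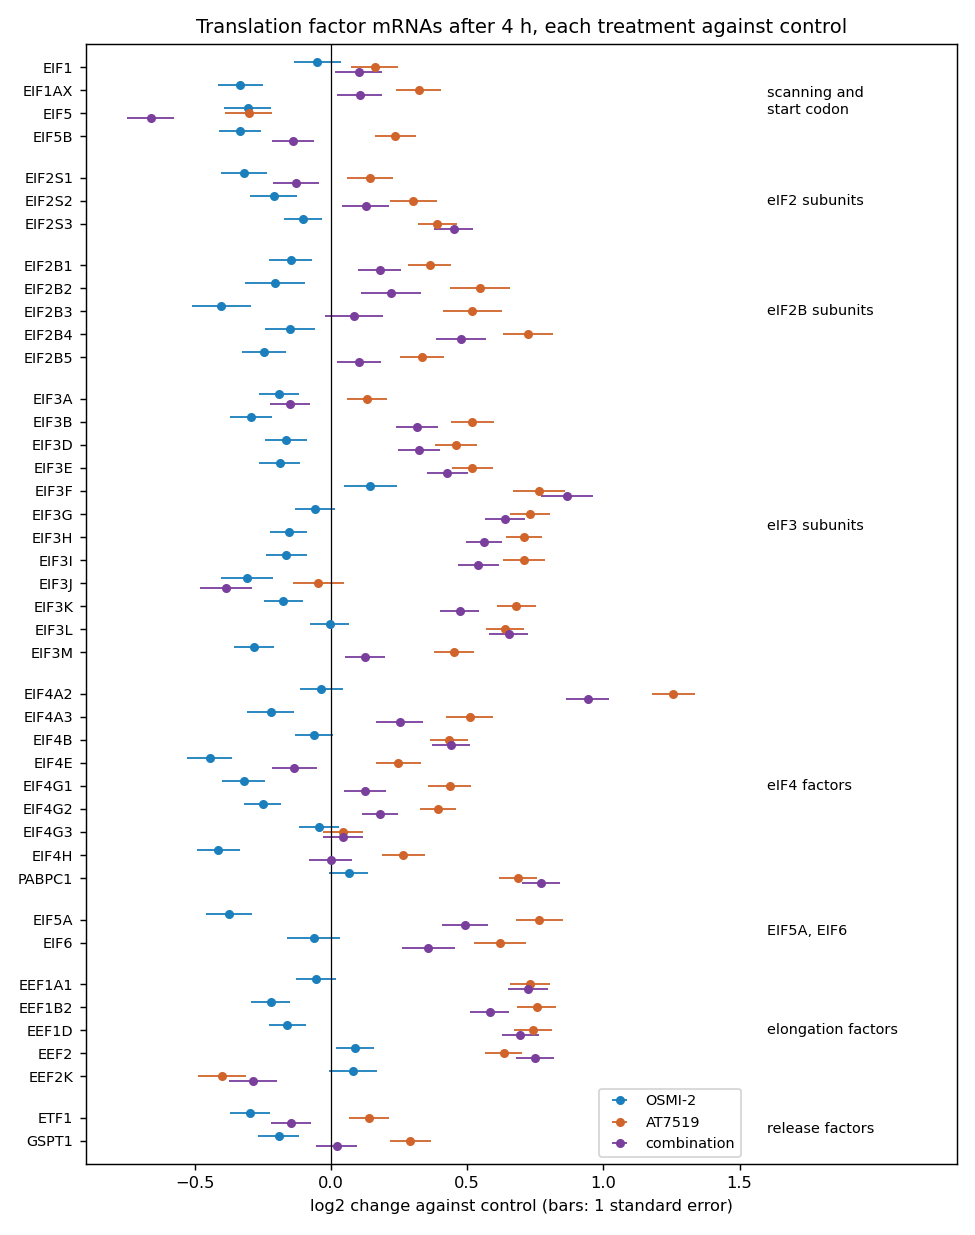
Log2 change against control (x axis) of 42 tested members, grouped by role, with OSMI-2, AT7519 and the combination; points are limma estimates and bars 1 SE, and EIF4A1 is left out for scale. AT7519 points lie right of 0 for all but EIF5, EEF2K and EIF3J and OSMI-2 points lie mostly left of it. With libraries scaled to equal mitochondrial mRNAs, 30 members were lower with AT7519, as were 14654 of all 19393 tested genes.

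Of the scanning and start codon factors, 2 of 4 rose with AT7519 and EIF5 fell, while all 4 were lower under equal mitochondrial mRNAs. EIF5, the GTPase-activating protein of eIF2 that acts when the start codon is found, had 30375 and 30331 normalised counts in control, 25280 and 23833 with OSMI-2, 26733 and 22642 with AT7519 and 19974 and 18406 with both agents. No treated library reached the control level, and both combination libraries lay below all others. Its change was -0.30 (SE 0.08, adjusted p = 0.00774) with AT7519, -0.66 (SE 0.08, adjusted p = 1.44e-05) with the combination and -0.36 (SE 0.08, adjusted p = 0.00942) for the combination against AT7519. The call with AT7519 alone was lost without AT7519 replicate 2, and that against AT7519 without AT7519 replicate 1 or combination replicate 2. With OSMI-2 it was -0.31 (adjusted p = 0.067), just short of a call.

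EIF5B, the GTPase that joins the large ribosomal subunit, had 23814 and 26511 normalised counts in control, 19254 and 20640 with OSMI-2, 29588 and 29578 with AT7519 and 22404 and 23214 with both agents. The OSMI-2 libraries were lowest and the AT7519 libraries highest, with no overlap of either with control. Its change was -0.33 (SE 0.08, adjusted p = 0.032) with OSMI-2, 0.24 (adjusted p = 0.0171) with AT7519 and -0.38 (SE 0.08, adjusted p = 0.00383) for the combination against AT7519. EIF1AX, which with EIF1 holds the scanning complex open, had 15661 and 17766 in control, 13665 and 12820 with OSMI-2, 21820 and 19938 with AT7519 and 17953 and 17925 with both agents. It changed by -0.33 (adjusted p = 0.0434) with OSMI-2 and 0.32 (adjusted p = 0.00425) with AT7519, and was -0.22 (adjusted p = 0.079) for the combination against AT7519. The rises of EIF5B and EIF1AX with AT7519 turned negative under equal totals, at -0.11 and -0.021, and were not called without control replicate 1, nor was that of EIF5B without AT7519 replicate 2. EIF1, which guards the choice of start codon, was not called in any comparison, with 52685 and 54158 in control and 61890 and 57537 with AT7519.

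Of the 3 subunits of eIF2, the carrier of initiator tRNA, EIF2S2 and EIF2S3 rose with AT7519, though all 3 were lower under equal mitochondrial mRNAs. EIF2S3, the GTP-binding subunit whose start holds a pyrimidine run, had 38280 and 41911 normalised counts in control, 38334 and 36253 with OSMI-2, 52094 and 52937 with AT7519 and 54714 and 54721 with both agents. All 4 libraries with AT7519 were above all 4 without it, and its change with AT7519 was 0.39 (SE 0.07, adjusted p = 0.000322), a call lost under equal totals. EIF2S1, the subunit that stress kinases phosphorylate, had 18936 and 21903 in control, 16717 and 15952 with OSMI-2, 22505 and 22463 with AT7519 and 19668 and 17629 with both agents. Its change for the combination against AT7519 was -0.27 (SE 0.08, adjusted p = 0.0371), and it was not called against control in any group. EIF2S2, the subunit that binds EIF5 and eIF2B, changed by 0.30 (SE 0.09, adjusted p = 0.00877) with AT7519, from 27266 and 29905 to 35896 and 34509, but was at -0.041 under equal totals and not called without control replicate 1.

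All 5 subunits of eIF2B, the exchange factor of eIF2, rose with AT7519 (median 0.52), whereas under equal totals 1 rose and under equal mitochondrial mRNAs 4 fell. EIF2B4 had the largest rise, from 4710 and 4804 normalised counts to 7232 and 8531, or 0.72 (SE 0.09, adjusted p = 1.55e-05), and stood at 6738 and 6496 with the combination. EIF2B2 followed, from 2754 and 2888 to 3944 and 4306, or 0.55 (SE 0.11, adjusted p = 0.000764). EIF2B1 went from 6228 and 6472 to 7995 and 8333, and EIF2B5, the catalytic subunit, from 8686 and 9172 to 10648 and 11872. In each of the 5 both AT7519 libraries were above both control libraries, though the share of all tested genes with such a gap was not computed. EIF2B3 had 2505 and 2705 in control, 2063 and 1878 with OSMI-2, 3842 and 3619 with AT7519 and 3014 and 2526 with both agents. Its fall of 0.43 on the log2 scale for the combination against AT7519 (SE 0.11, adjusted p = 0.0123) was the only call of eIF2B in that comparison, and it was lost without AT7519 replicate 1 or combination replicate 2. With the combination against control EIF2B4 alone rose, by 0.48.

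Of 12 subunits of eIF3, the scaffold that recruits mRNA to the small ribosomal subunit, 10 rose with AT7519, but under equal mitochondrial mRNAs 0 rose and 7 fell. EIF3A, the largest core subunit, and EIF3J, a loosely bound subunit at the mRNA entry channel, were not called. EIF3F had 14755 and 12041 normalised counts in control, 15127 and 14355 with OSMI-2, 24029 and 21294 with AT7519 and 25121 and 23493 with both agents. It was higher in all 4 libraries with AT7519, by 0.76 (SE 0.10, adjusted p = 1.48e-05) with AT7519 and 0.87 (SE 0.10, adjusted p = 3.86e-06) with the combination. EIF3G, an RNA-binding subunit, went from 12459 and 12623 to 20031 and 21626 with AT7519, or 0.73 (SE 0.07, adjusted p = 1.95e-06). The other 8 that rose with AT7519, EIF3B, EIF3D, EIF3E, EIF3H, EIF3I, EIF3K, EIF3L and EIF3M, changed by 0.45 to 0.71. With the combination 9 rose against control.

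EIF3J went the other way with the combination. Its libraries held 14645 and 17476 normalised counts in control, 12519 and 13311 with OSMI-2, 15987 and 15015 with AT7519 and 11478 and 13050 with both agents. The combination lay below control by 0.39 on the log2 scale (SE 0.09, adjusted p = 0.00313), a call lost without control replicate 2, and below AT7519 by 0.34 (SE 0.09, adjusted p = 0.022). EIF3M had 20757 and 22385 in control, 30083 and 28849 with AT7519 and 23935 and 23077 with both agents, and its change for the combination against AT7519 was -0.33 (SE 0.07, adjusted p = 0.00731). EIF3A was the other subunit of eIF3 called there, at -0.28 (adjusted p = 0.016), from 70584 and 63496 with AT7519 to 56164 and 53959. EIF3L shares 44.8% of its annotated mRNA bases with another gene on the same strand in GENCODE release 29, so its reads may be incomplete.

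Among the 10 factors at the cap and poly(A) tail, 9 rose with AT7519 and EIF4G3 was not called (0.044), while under equal mitochondrial mRNAs 2 rose and 7 fell. EIF4A2, an RNA helicase of the cap-binding complex, had 33140 and 35482 normalised counts in control, 31969 and 34992 with OSMI-2, 77021 and 87129 with AT7519 and 64895 and 66905 with both agents. It rose 2.39-fold with AT7519, by 1.26 on the log2 scale (SE 0.08, adjusted p = 5.42e-08), and stayed positive under every scaling, at 0.34 with equal mitochondrial mRNAs. The combination was 0.94 (SE 0.08, adjusted p = 2.92e-07) above control, though -0.036 under equal mitochondrial mRNAs, and 0.31 below AT7519 on the log2 scale (change -0.31, SE 0.08, adjusted p = 0.0133), the latter call being lost without AT7519 replicate 2 or either combination library. Its interaction of -0.28 (SE 0.11, adjusted p = 0.382) had the lowest adjusted p of the members.

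EIF4A1, the closest paralogue of EIF4A2, had the largest change of all members, in a row whose exons overlap those of a readthrough gene. The values were 1097 and 1050 normalised counts in control, 1011 and 1050 with OSMI-2, 8309 and 14035 with AT7519 and 11527 and 10222 with both agents. The AT7519 libraries differed by more from each other than those of any other group, yet every library with AT7519 was far above every one without it. The change was 3.33 (SE 0.17, adjusted p = 1.1e-08) with AT7519 and 3.34 (SE 0.17, adjusted p = 6.55e-09) with the combination. In GENCODE release 29 the principal EIF4A1 mRNA of 1756 bases lies wholly within exons of the readthrough gene SENP3-EIF4A1 on the same strand, and 2733 exon bases of EIF4A1, 0 of them in that mRNA, are not shared. The row of SENP3-EIF4A1 held 12.8 to 44.7 normalised counts, and that of the processed pseudogene EIF4A1P10 held 1629 and 1755 in control, more than EIF4A1 itself. EIF4A1P10 rose by 0.53 (SE 0.10, adjusted p = 0.000608) with AT7519, to 2399 and 2498, and SENP3 by 0.34 (SE 0.10, adjusted p = 0.00936). Which transcripts the EIF4A1 reads came from, and the annotation used for counting, were not tested or given, so the 10.1-fold change is given for the row only.

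**Figure D2:**
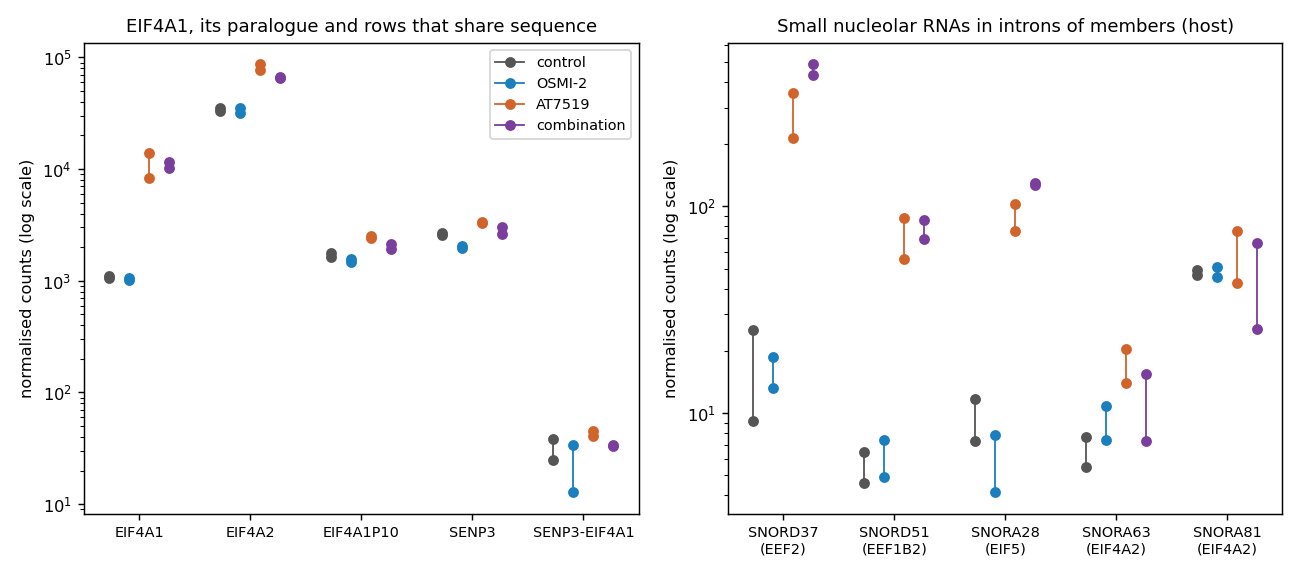
Left, normalised counts (log axis) in each library for EIF4A1, EIF4A2 and rows that share sequence or place with EIF4A1; right, the same for 5 small nucleolar RNAs in introns of EEF2, EEF1B2, EIF5 and EIF4A2. Points are libraries joined within a group; EIF4A1, SNORD37, SNORD51 and SNORA28 are higher in all 4 libraries with AT7519, whereas SENP3-EIF4A1 stays between 12.8 and 44.7.

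EIF4E, which binds the cap itself, had 14362 and 16588 normalised counts in control, 11233 and 11440 with OSMI-2, 19094 and 17583 with AT7519 and 13873 and 14256 with both agents. Its OSMI-2 change of -0.45 (SE 0.08, adjusted p = 0.0161) was the largest fall of any member in that comparison, and the combination lay below AT7519 by 0.38 on the log2 scale (change -0.38, SE 0.08, adjusted p = 0.00609). EIF4G1, the scaffold that joins EIF4E to EIF4A and PABPC1, had 78563 and 81739 in control, 62551 and 65796 with OSMI-2, 101396 and 115889 with AT7519 and 83899 and 90961 with both agents. Both OSMI-2 libraries were below control, at -0.32 (SE 0.08, adjusted p = 0.0418), and both AT7519 libraries above it, at 0.44. EIF4H, a helper of the helicase, had 21369 and 23018 in control and 17614 and 15746 with OSMI-2, a change of -0.41 (SE 0.08, adjusted p = 0.0164). With libraries scaled to equal totals EIF4E and EIF4H kept their call with OSMI-2, and the other 5 members called there did not.

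PABPC1, the main cytoplasmic poly(A)-binding protein, is itself encoded by a TOP mRNA. It had 120983 and 125296 normalised counts in control, 130078 and 127499 with OSMI-2, 196914 and 199628 with AT7519 and 198986 and 221843 with both agents. The 4 libraries with AT7519 were all above the 4 without it, by 0.69 (SE 0.07, adjusted p = 2.33e-06) with AT7519 and 0.77 (SE 0.07, adjusted p = 6.19e-07) with the combination, against -0.23 and -0.21 under equal mitochondrial mRNAs. EIF4B, another TOP mRNA and a stimulator of the helicase, had 91933 and 94593 in control, 132160 and 119756 with AT7519 and 127440 and 125462 with both agents. EIF4G2, a scaffold that lacks the EIF4E-binding site, had 123349 and 126843 in control, 166911 and 161511 with AT7519 and 141396 and 141842 with both agents. EIF4A3, which belongs to the exon junction complex, rose from 6948 and 7019 to 9714 and 10176 with AT7519.

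**Figure D3:**
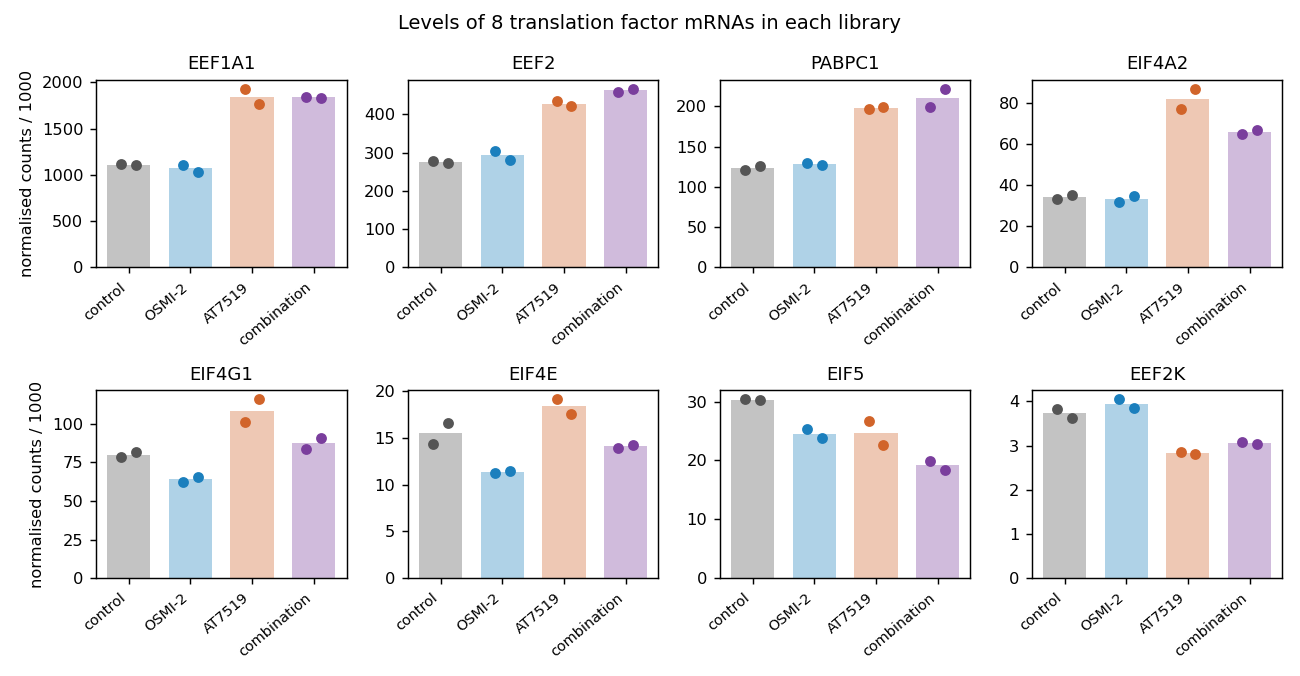
Normalised counts divided by 1000 (y axis, from 0) of 8 members in each library; bars are means of 2 libraries and points the libraries. EEF1A1, EEF2, PABPC1 and EIF4A2 are higher in all libraries with AT7519, EIF4G1 and EIF4E are lowest with OSMI-2, EIF5 is lowest with the combination and EEF2K is lower with AT7519; under equal mitochondrial mRNAs the AT7519 changes of EEF1A1, EEF2 and PABPC1 were -0.19, -0.28 and -0.23.

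EIF5A, the hypusine-bearing factor that helps ribosomes over difficult peptide bonds, and EIF6, which keeps free large subunits apart, both rose with AT7519, though their changes were -0.15 and -0.29 under equal mitochondrial mRNAs. EIF5A had 38939 and 37319 normalised counts in control, 31549 and 27372 with OSMI-2, 65466 and 64136 with AT7519 and 57495 and 49963 with both agents. The groups did not overlap, and the changes were -0.38 (SE 0.09, adjusted p = 0.032) with OSMI-2 and 0.77 (SE 0.09, adjusted p = 4.72e-06) with AT7519. The combination against AT7519 gave -0.27 (SE 0.09, adjusted p = 0.0367), a call lost with edgeR and without either control library, either AT7519 library or combination replicate 2. EIF6 had 6199 and 7004 in control, 6486 and 6123 with OSMI-2, 10005 and 10262 with AT7519 and 9204 and 7745 with both agents. It changed by 0.62 (SE 0.10, adjusted p = 8.48e-05) with AT7519, and 22.7% of its annotated mRNA bases are shared with another gene on the same strand.

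Of the elongation factors, the 4 tested subunits or translocases rose with AT7519 and with the combination and EEF2K fell, while under equal mitochondrial mRNAs the 4 had changes of -0.28 to -0.16. EEF1A1, which brings aminoacyl-tRNAs to the ribosome, had the highest control level per kilobase of annotated mRNA, 482955 normalised counts per kb, and EEF2 came next with 87060. EEF1A1 had 1119730 and 1104758 normalised counts in control, 1107564 and 1033797 with OSMI-2, 1931958 and 1761881 with AT7519 and 1846681 and 1828380 with both agents. The libraries with AT7519 did not overlap those without it, at 0.73 (SE 0.07, adjusted p = 2.1e-06) with AT7519 and 0.72 (SE 0.07, adjusted p = 1.72e-06) with the combination. EEF2, the translocase, had 279172 and 271745 in control, 305164 and 281111 with OSMI-2, 434027 and 420727 with AT7519 and 458311 and 467116 with both agents. It was 0.63 (SE 0.07, adjusted p = 3.74e-06) above control with AT7519 and 0.75 (SE 0.07, adjusted p = 6.36e-07) with the combination.

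The nucleotide exchange subunits of the eEF1 complex moved alike. EEF1B2 had 31943 and 32824 normalised counts in control, 28695 and 26877 with OSMI-2, 56991 and 52440 with AT7519 and 49113 and 47831 with both agents, and rose by 0.76 (SE 0.07, adjusted p = 1.17e-06) with AT7519. EEF1D had 31975 and 33854 in control, 29514 and 29332 with OSMI-2, 53756 and 56267 with AT7519 and 52296 and 54294 with both agents, and rose by 0.74 (SE 0.07, adjusted p = 9.41e-07). EEF1G, the scaffold of that complex, is listed at 0 in all 8 libraries, and 99.9% of its annotated mRNA bases are shared with a readthrough gene, AP002990.1, on the same strand in GENCODE release 29. EEF2K, the kinase that inactivates EEF2, had 3835 and 3635 in control, 4047 and 3850 with OSMI-2, 2852 and 2800 with AT7519 and 3078 and 3042 with both agents. It was lower in all 4 libraries with AT7519, at -0.40 (SE 0.09, adjusted p = 0.00145) with AT7519 and -0.29 (SE 0.09, adjusted p = 0.0129) with the combination. The latter call was lost without control replicate 1 or combination replicate 2 and with equal upper quartiles, where EEF2K was at -0.15.

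The release factors changed little against control. ETF1, the factor eRF1 that reads stop codons, had 24851 and 27771 normalised counts in control, 21544 and 21192 with OSMI-2, 29028 and 28836 with AT7519 and 23605 and 23834 with both agents. It was called with OSMI-2, at -0.30 (SE 0.07, adjusted p = 0.0431), and for the combination against AT7519, at -0.29 (SE 0.07, adjusted p = 0.0143). GSPT1, the GTPase eRF3a, had 30022 and 32575 in control, 26723 and 28037 with OSMI-2, 37238 and 39295 with AT7519 and 30426 and 33120 with both agents. It was 0.29 (SE 0.08, adjusted p = 0.00476) above control with AT7519, but -0.052 under equal totals and not called without control replicate 1, and the combination was 0.27 below AT7519 (change -0.27, SE 0.08, adjusted p = 0.0227).

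Members with a pyrimidine run at a RefSeq start and members without one are set side by side here. The 10 with a run, EEF1A1, EEF1B2, EEF2, EIF2S3, EIF3D, EIF3F, EIF3K, EIF3M, EIF4A2 and EIF4B, all rose with AT7519 (median 0.66, range 0.39 to 1.26), while 18 of 25 without one rose and 2 fell (median 0.33). Under equal totals 6 of the 10 and 5 of the 25 rose, and under equal mitochondrial mRNAs 1 of each rose and 5 and 21 fell. For the combination against AT7519, 2 of the 10 fell (median -0.07), EIF3M and EIF4A2, and 13 of the 25 fell (median -0.26). With OSMI-2, 0 of the 10 and 7 of the 25 fell. Over all tested genes with a RefSeq start, the 752 with a run had a median of 0.13 with AT7519, 298 rising and 194 falling, and the 9723 without one had a median of -0.020. With OSMI-2, 4.12% of those with a run and 3.48% of those without fell. For the combination against AT7519, 15.7% and 17.8% fell, with medians of -0.057 and -0.050. These are descriptions, and no test of the difference between the classes was run.

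**Figure D4:**
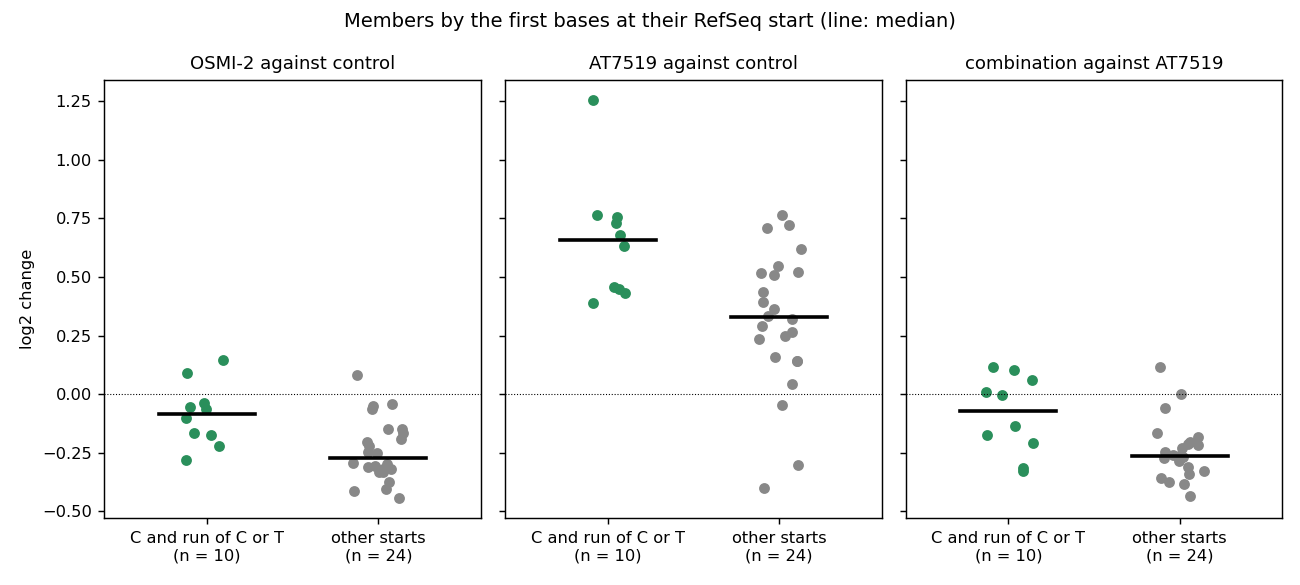
Log2 change (y axis) of members with a RefSeq start, split by whether a start begins with C and at least 4 further C or T (10 members) or not (24, EIF4A1 left out for scale), in 3 comparisons; each point is a member and the line the median. With AT7519 all 10 with a run lie above 0.39, and in the combination against AT7519 their median is -0.07 against -0.27 for the others. Under equal mitochondrial mRNAs 5 of the 10 were lower with AT7519, as were 14654 of all 19393 tested genes.

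A list of 10 members known as TOP mRNAs from the literature overlaps that class but was not drawn from the sequences. For PABPC1, EEF1D, EIF3E and EIF3H no RefSeq start was found, so they could not enter the run class, only this list. Its 9 tested members, EEF1A1, EEF1B2, EEF1D, EEF2, PABPC1, EIF4B, EIF3E, EIF3F and EIF3H, all rose with AT7519 (median 0.71) and with the combination (median 0.70), 8 of 9 also under equal totals but 0 under equal mitochondrial mRNAs. None of the 9 fell with OSMI-2 or for the combination against AT7519 (medians -0.064 and -0.0058), where 7 and 16 of the other 34 members fell (medians -0.21 and -0.25). Every member called lower with OSMI-2 or for the combination against AT7519 lay outside the TOP list. Other letters were searched on both strands in the 300 bases around each start. CCGGAAG, a site that ETS-family factors can bind, was in 19.6% of member starts and 10.3% of all starts. Among tested genes with a RefSeq start, 25.7% of members (9 of 35) and 21.2% of all genes (2217 of 10475) had it. The gap was smaller there than over all starts. TGACGTCA, the CREB site, was in 1 member start, that of EEF2, and in 1.85% of all starts. A site and a run can lie in the same window.

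The change with AT7519 was smaller for members with longer mRNAs. Across 42 members with an annotated principal mRNA, the log2 change and mRNA length had a Pearson r of -0.44 and a Spearman rho of -0.66, or -0.61 and -0.66 without EIF4A1. Over 12724 tested protein-coding genes the same values were -0.25 and -0.33. The 21 members with the shorter gene spans (median 9.46 kb) had a median change of 0.63 and the 22 with longer spans (median 37.1 kb) one of 0.35. Control level per kb also went with the changes over the 12724 genes. Its Spearman rho was 0.38 with AT7519, -0.31 with OSMI-2 and -0.31 for the combination against AT7519. Across the 42 members the same values were 0.36, 0.26 and 0.34. The part of control level in the members' median changes was not tested. The points share the same libraries and genes differ in length and level together, so these are descriptions.

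A list of 13 small nucleolar RNAs known to lie in introns of 7 members was followed, all with a row in the table. It is not complete, since SNORA19 lies within EIF3A on the same strand and was not listed. Of the 13, 5 were tested. With AT7519 3 of the 5 rose, where 26.0% of all tested genes rose. SNORD51 and SNORA28 averaged 5.52 and 9.54 normalised counts in control and less than 10 with OSMI-2. They reached the mean of 10 required for a test only through their libraries with AT7519, so the count cannot be set against that share. Of the untested rows, SNORD2, SNORD10 and SNORD97 were at 0 in every library. SNORD37, in EEF2, had 25.3 and 9.16 normalised counts in control, 18.6 and 13.3 with OSMI-2, 214 and 352 with AT7519 and 432 and 487 with both agents. It rose by 4.08 (SE 0.41, adjusted p = 1.87e-06) with AT7519, where its host changed by 0.63. SNORD51, in EEF1B2, went from 6.47 and 4.58 to 55.8 and 87.4 (log2 change 3.46, SE 0.48). SNORA28, in EIF5, went from 11.8 and 7.33 to 76.1 and 103 (3.12, SE 0.44) while EIF5 itself fell. No p-values are given for SNORD51 and SNORA28, since the filter let them in through these same libraries. SNORA63 and SNORA81, in EIF4A2, were not called. The rows lie on the strand of their hosts, and whether the reads came from the small RNAs or from host introns was not tested.

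Pseudogenes named after 18 of the members have 117 rows, of which 50 were tested. With AT7519 30 of the 50 rose and 0 fell (median 0.67), where 26.0% of all tested genes rose and 27.2% fell. EEF1A1 alone gave 19 of the 50 rows and 15 of the 30 rises, so the rows are not separate observations. Whether their reads came from the parent mRNAs was not tested. The 38 rows named after EEF1A1 summed to 4.20% of EEF1A1 in control and 4.29% with AT7519, so the share differed little.

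A wider list of 55 other genes of translation, 53 of them tested, moved less uniformly. With AT7519 23 rose and 8 fell (median 0.18), where 26.0% of all tested genes rose and 27.2% fell. OSMI-2 gave 1 rise and 3 falls, against 0.645% and 2.38% of all tested genes. For the combination against AT7519 18 fell and 0 rose, against 12.5% and 7.21%. Among paralogues and further cytosolic factors, 7 of 14 rose with AT7519 and 2 fell, against 2 and 11 under equal mitochondrial mRNAs. EIF3CL and EIF3C, near-identical copies of an eIF3 subunit between which reads may be split, rose by 1.36 (SE 0.18) and 1.26 (SE 0.13). DDX3X, a helicase that aids scanning, fell from 49422 and 50361 normalised counts to 27729 and 22810, or by 0.99 on the log2 scale (SE 0.08, adjusted p = 5.01e-07). EIF1B, the paralogue of EIF1, fell from 4025 and 4066 to 2906 and 2243 with AT7519 and 1563 and 1448 with both agents, or by 0.66 (SE 0.12) and 1.43.

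Of 11 regulators of the cap and poly(A) tail, 3 rose and 4 fell with AT7519, while under equal mitochondrial mRNAs 0 rose and 11 fell. EIF4ENIF1, which carries EIF4E into the nucleus, fell by 0.70 (SE 0.12, adjusted p = 0.000198) and MKNK2, a kinase of EIF4E, by 0.42 (SE 0.07, adjusted p = 0.000257). EIF4EBP1, the repressor of EIF4E that mTOR inactivates, rose by 0.51 (SE 0.12, adjusted p = 0.00172), a call lost under equal totals. Of 6 eIF2 kinases and phosphatase subunits, EIF2AK3, the kinase PERK of the endoplasmic reticulum, fell by 0.54 (SE 0.10) with AT7519 and rose by 0.44 (SE 0.10, adjusted p = 0.0334) with OSMI-2. The call with OSMI-2 was lost without any 1 of the control and OSMI-2 libraries, with equal mitochondrial mRNAs, without the low-count filter and without the variance trend. It had 4058 and 4154 normalised counts in control, 5309 and 5855 with OSMI-2, 3089 and 2593 with AT7519 and 2673 and 2798 with both agents. EIF2AK1, the heme-regulated kinase, rose by 0.30 (SE 0.08) with AT7519, but was -0.042 under equal totals.

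Of 5 recycling and rescue factors, ABCE1, MCTS1 and DENR fell with OSMI-2 by 0.46 (SE 0.09), 0.37 (SE 0.09) and 0.33 (SE 0.08), calls that were lost without control replicate 2 or either OSMI-2 library. ABCE1 splits ribosomes after termination, and MCTS1 with DENR removes the spent tRNA. MCTS1 rose by 0.51 (SE 0.09) with AT7519, a call lost under equal totals. Of 8 enzymes that place hypusine on EIF5A or diphthamide on EEF2, 3 rose with AT7519, among them DHPS by 0.61 (SE 0.08, adjusted p = 1.95e-05), and 3 fell for the combination against AT7519, among them DOHH by 0.63 (SE 0.12, adjusted p = 0.00281). Of 9 mitochondrial translation factors, 6 rose with AT7519, led by the elongation factor TUFM at 0.79 (SE 0.07, adjusted p = 8.29e-07), while under equal mitochondrial mRNAs 0 rose and 6 fell.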

How the data were processed

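Strand-specific TruSeq libraries of RNA isolated with an Illustra RNAspin kit were sequenced, per the labels' protocols. The deposited table gives 1 signal value for each gene in each library: the reads counted by the authors, scaled by a single factor for the whole library. STAR, HTSeq, DESeq2, hg19 and GRCh37 are named in the submitters' processing notes, and the versions, annotation and strand setting were not given in the sources used. Dividing by each column's smallest step gave whole reads for 100% of values within 0.01. The 28 unnamed lines were left out.

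Genes with a mean of at least 10 were tested on log2(value + 1) with limma 3.58.1 (R 4.3.3, mean-variance trend, 4 group means, 4 residual and 10.1 prior degrees of freedom). Two-sided p-values received a Benjamini-Hochberg adjustment across the 19393 genes in each comparison, with calls made below 0.05. Recovered reads were also tested with edgeR 4.0.16 and DESeq2 1.42.0. The fit was tested on simulated data. Other alternatives changed the pseudocount, filter, trend, scaling or the libraries used, or added the replicate number. mRNA lengths, spans and overlaps come from GENCODE release 29, matched by symbol, with the lowest-numbered principal transcript of each gene. Starts come from RefSeq.

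The 44 members, the other lists and the motifs were chosen with earlier results of these data known. In each comparison the called members with the 2 largest rises and falls per role were named, and up to 2 called genes in each direction of other lists; fewer are given for brevity. Further genes and motifs beyond that rule were chosen after their values were seen.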

Additional observations from a re-analysis of the deposited data

Results flagged for a closer look

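Among the other translation genes, 2 had a called interaction (limma, Benjamini-Hochberg adjusted over all genes), where 0.975% of all tested genes had a called negative one. PPP1R15B, the constitutive phosphatase subunit that reverses eIF2 phosphorylation, had 16730 and 16304 normalised counts in control, 15453 and 15292 with OSMI-2, 18076 and 13602 with AT7519 and 7566 and 5737 with both agents. Each agent alone left it near control, at -0.10 and -0.075, whereas the combination lay 1.33 below control on the log2 scale (change -1.33). The interaction was -1.15 (SE 0.18, adjusted p = 0.0136), and the call was lost without any 1 of the 4 control and OSMI-2 libraries.

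PELO, which rescues stalled ribosomes, had 5198 and 5683 normalised counts in control, 4978 and 4989 with OSMI-2, 5330 and 4506 with AT7519 and 2807 and 2092 with both agents. Its interaction was -0.89 (SE 0.18, adjusted p = 0.03), a call lost without any 1 of the control and OSMI-2 libraries, AT7519 replicate 1 or combination replicate 2. The gene lies within ITGA1, with which it shares 10.9% of its annotated mRNA bases. Against AT7519 the combination lowered PPP1R15B by 1.25 (SE 0.13, adjusted p = 7.85e-05) and PELO by 1.02 (SE 0.13, adjusted p = 0.000187), and these calls held in every alternative run.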

How the results depend on the processing

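With equal mitochondrial mRNAs the members lower numbered 14 with OSMI-2, members higher and lower 2 and 30 with AT7519, 1 and 38 with the combination and 1 and 26 for the combination against OSMI-2. With equal totals these were 2, then 17 and 6, 11 lower with the combination, and 19 and 6. For the combination against AT7519 1 rose and 5 fell, as with equal upper quartiles. Over all 19393 tested genes, equal mitochondrial mRNAs gave 1170 lower with OSMI-2 and, higher and lower, 383 and 14654 with AT7519. The combination gave 425 and 14588 against control and 420 and 13515 against OSMI-2. Equal totals gave 118 lower with OSMI-2, then 2035 and 8363, 7369 lower with the combination, and 2129 and 7862. For the combination against AT7519 they gave 2022 higher and 1534 lower. Equal upper quartiles left 2 lower with OSMI-2. Without the low-count filter 0 fell with OSMI-2 and 7 for the combination against AT7519, and without the trend 0 and 0 did, and 1 fell with AT7519. DESeq2 gave 15 lower with OSMI-2, where 1113 of all tested genes were lower.

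Leaving out each library in turn gave 0 to 12 lower with OSMI-2, 1 to 2 lower with AT7519 and, for the combination against AT7519, 0 to 1 higher and 5 to 14 lower. The labels do not say whether equal replicate numbers mark a shared culture or day. Deviations of libraries with equal numbers correlated weakly, at 0.021 to 0.12, which cannot decide it. A replicate block gave 12 lower with OSMI-2 and moved no other count by more than 1.5 times.

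With AT7519 under equal mitochondrial mRNAs the changes reversed to -0.19 in EEF1A1, -0.28 in EEF2, -0.16 in EEF1B2, -0.17 in EEF1D, -0.23 in PABPC1, -0.15 in EIF3F, -0.19 in EIF3G, -0.15 in EIF5A, -0.29 in EIF6, -0.19 in EIF2B4, -0.37 in EIF2B2, -0.53 in EIF2S3, -0.61 in EIF2S2, -0.59 in EIF1AX, -0.68 in EIF5B, -0.63 in GSPT1, -0.12 in TUFM, -0.40 in EIF4EBP1, -0.61 in EIF2AK1, -0.31 in DHPS and -0.40 in MCTS1. For the combination against control they reversed to -0.11 in EIF3F, -0.23 in EEF2, -0.21 in PABPC1, -0.25 in EEF1A1 and -0.036 in EIF4A2. With equal totals the AT7519 changes reversed to -0.041 in EIF2S2, -0.021 in EIF1AX, -0.11 in EIF5B, -0.052 in GSPT1 and -0.042 in EIF2AK1.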
